A study of Mus musculus with 19 samples.

Results

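The miRNAs bound to tagged Ago2 in parvalbumin (PV) interneurons of the mouse neocortex were set against those bound in all neurons of the Gad2 class. The comparison took the 2 libraries labelled PV and the 3 labelled Gad2, out of 19 libraries in the series, and covered every miRNA name that could be tested, 522 of 528. Small RNAs of 19 to 24 nt that came down with Ago2 were sequenced. Libraries of both groups came from neocortex of postnatal day 56 mice on a mixed C57BL/6 and 129 background, each from 4 pooled tissues, with the same anti-Myc antibody. In this tagging approach a Myc-tagged Ago2 is switched on by a Cre recombinase under the control of the named gene, so that the antibody takes miRNAs of those cells out of a homogenate of the whole tissue. The labels name the cell class and not the Cre line. Libraries of SST (somatostatin) neurons (n = 2, also 4 pooled tissues each) and of Camk2a excitatory neurons (n = 3, 1 tissue each, on a mixed C57BL/6 and BALB/c background) of the same age and tissue were prepared with the same antibody, and their levels are given beside some results.

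PV interneurons are fast-spiking GABAergic cells whose axons end mainly on the cell bodies and initial axon segments of pyramidal neurons, and Gad2 encodes an enzyme that makes GABA. PV and SST cells are themselves Gad2 neurons, so each difference below is between PV cells and a pool that includes them. A miRNA is cut from a hairpin precursor, and 1 of its arms, the guide, is mostly kept in Ago2 while the other, often written with a star, is mostly discarded. The guide pairs with messenger RNAs through its seed, bases 2 to 8, and lowers their translation and stability, so miRNAs with the same seed share many targets.

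The sequences of miRNAs on which the results turn are given here 5′ to 3′ with the seed in capitals, from RefSeq for GRCm38.p6. The first group fell in PV cells, and its members have different seeds.
miR-551b: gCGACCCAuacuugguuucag
miR-137: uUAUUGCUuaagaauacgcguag
miR-873: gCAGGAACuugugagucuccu
miR-298: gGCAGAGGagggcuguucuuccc
miR-296-3p: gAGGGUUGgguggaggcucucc
miR-128: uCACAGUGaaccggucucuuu
miR-551b lies at chr3:29416879-29416899 in an intron of Egfem1, miR-137 at chr3:118433901-118433923 in an exon of the transcript Gm26871, and miR-873 at chr4:36668556-36668576 on the minus strand in an intron of Lingo2. miR-128 has 2 copies, at chr1:128202404-128202424 in an intron of R3hdm1 and at chr9:112118644-112118664 in an intron of Arpp21.

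The next sequences, which also fell, are grouped by seed. miR-99a and miR-100 share ACCCGUA, miR-221 and miR-222 share GCUACAU, miR-500 and miR-501-3p share AUGCACC, and the let-7 members share GAGGUAG.
miR-99a: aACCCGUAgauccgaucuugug
miR-100: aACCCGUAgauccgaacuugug
miR-221: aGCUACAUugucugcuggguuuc
miR-222: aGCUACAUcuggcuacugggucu
miR-500: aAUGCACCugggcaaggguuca
miR-501-3p: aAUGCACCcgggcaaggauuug
let-7c: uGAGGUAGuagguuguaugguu
let-7b: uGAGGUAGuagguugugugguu
let-7g: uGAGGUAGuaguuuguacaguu
let-7g is shown because it carries the seed of let-7b and let-7c and did not pass the test.

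The last group rose in PV cells. The star arms of miR-30e and miR-30a share the seed UUUCAGU.
miR-133b: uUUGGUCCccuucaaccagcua
miR-34a: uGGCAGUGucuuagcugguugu
miR-218: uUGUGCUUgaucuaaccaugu
miR-30e*: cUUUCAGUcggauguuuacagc
miR-30a*: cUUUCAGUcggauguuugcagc
miR-218 is encoded at chr5:48223966-48223986 in an intron of Slit2 and at chr11:35616840-35616860 in an intron of Slit3, genes of axon guidance ligands. miR-34a lies at chr4:150068473-150068494 outside annotated genes, and miR-133b at chr1:20682834-20682855 in an exon of the transcript Gm28653.

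The unit of level is RPM, reads out of every 1000000 miRNA reads, and thus a share of the miRNA reads of a library. Any carry-over from untagged cells is counted in it. A smaller number of cells that hold a miRNA and a lower amount of it per cell cannot be told apart in these bulk libraries. PV libraries held 10739153 and 11438142 miRNA reads and Gad2 libraries 6983992 to 14249087 (SST libraries 1278770 and 2457681), so that 3 reads, taken as the floor, stood at 0.211 to 0.430 RPM in PV and Gad2 libraries. PV libraries detected 494 and 495 names and Gad2 libraries 484 to 491. Each PV library was closest to the other PV library (r = 0.9931 on log2 values), and each Gad2 library to another Gad2 library. The spread between replicates exceeded counting error: the chi-square over its degrees of freedom was 218 between the PV libraries and 250.2 to 498 between Gad2 libraries. The libraries hold no messenger RNA, so the cell class could not be checked against Pvalb or Gad2 transcripts, and no miRNA was taken as a defining marker of either class. Differences were tested with limma on log2 values over all miRNAs and called at a Benjamini-Hochberg adjusted p under 0.05.

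PV cells differed from the Gad2 pool in 111 of 522 miRNAs (21.3%), and more were lower than higher. In PV cells 35 miRNAs rose (6.70%) and 76 fell (14.6%). The change was at least 2-fold for 89 of the 111 (17.0% of those tested), of which 28 rose and 61 fell, and at least 4-fold for 6 that rose and 35 that fell. Of the 161 miRNAs whose PV and Gad2 means averaged 100 RPM or more, 21 rose and 34 fell. PV and Gad2 libraries did not overlap for 272 miRNAs (52.1%), among them all 111 that were called. A lack of overlap given below for a called miRNA thus adds no support to its call. The median log2 change over all miRNAs tested was 0.00. A count model called more miRNAs that were higher: DESeq2 on the recovered reads gave 69 higher and 81 lower. Without PV replicate 1 there were 18 higher and 55 lower, and without PV replicate 2 there were 18 higher and 67 lower, each such fit resting on a lone PV library that was assumed to vary like the other groups. Of the 111, 66 were called under all 14 alternatives tried, 14 of them higher and 52 lower.

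**Figure D1:**
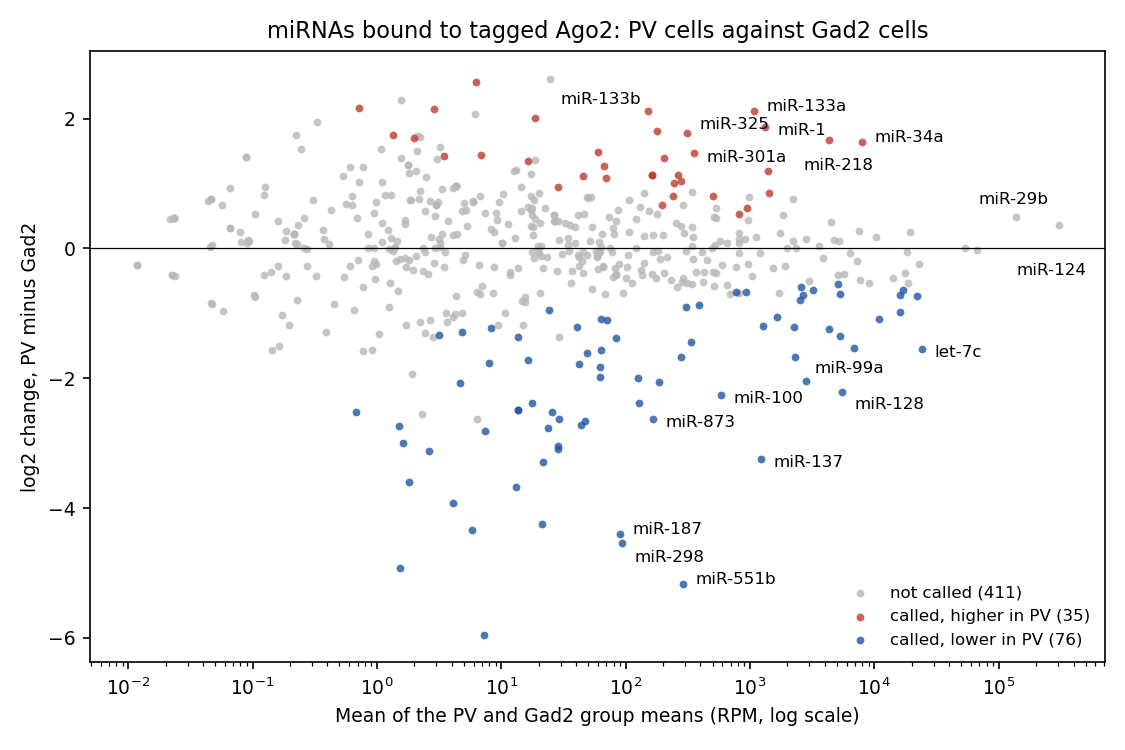
Each point is 1 of 522 miRNAs, with its level on the x axis (mean of the PV and Gad2 group means in RPM, log scale) and its fitted log2 change, PV minus Gad2, on the y axis. The 35 miRNAs called higher in PV and the 76 called lower are coloured; miR-124 and miR-29b, the most abundant, were not called, and miR-551b is the lowest point among miRNAs above 100 RPM.

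Among miRNAs of 100 RPM or more, those of muscle rose furthest. miR-1 and the miR-133 family, which are known from muscle, were several times higher in PV cells. miR-133b had 234 and 258 RPM in PV libraries, against 49.1, 66.6 and 54.8 RPM in Gad2 libraries. miR-133a had 1429 and 2053 RPM in PV libraries, against 364, 448 and 382 RPM in Gad2 libraries, and miR-1 had 1849 and 2323 RPM in PV libraries, against 617, 513 and 569 RPM. The lowest PV library was above the highest Gad2 library for all 3, and a lack of overlap held for all 111 miRNAs called. By limma miR-133b rose by 2.12 ± 0.25 (log2, SE; 4.36-fold, adjusted p = 2.08e-06), miR-133a by 2.11 ± 0.19 (4.32-fold, adjusted p = 2.8e-08) and miR-1 by 1.88 ± 0.27 (3.67-fold, adjusted p = 2.19e-05). The star arm of miR-133a had 7.82 and 12.3 RPM in PV libraries, against 3.02, 1.75 and 2.15 RPM in Gad2 libraries, and just missed the threshold (log2 change 2.08, adjusted p = 0.05004). The list of 5 names had 3 higher and 0 lower, with a median log2 change of 2.08, beside 6.70% higher and 14.6% lower and a median of 0.00 over all miRNAs. miR-133a and miR-133b are near-identical and may share reads, so they are not independent. SST libraries had 52.4 and 50.9 RPM of miR-133a and 85.2 and 73.6 RPM of miR-1, and Camk2a libraries 123, 136 and 126 RPM of miR-133a.

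Among miRNAs better known in neurons, miR-34a and miR-218 rose. miR-34a, a target of p53 that limits proliferation, had 11772 and 11981 RPM in PV libraries, against 5238, 3423 and 3044 RPM in Gad2 libraries. It rose 3.13-fold (log2 change 1.65 ± 0.28, limma adjusted p = 0.000114), and its star arm had 27.7 and 31.7 RPM in PV libraries, against 5.96, 7.55 and 8.59 RPM in Gad2 libraries (log2 change 2.01 ± 0.55, adjusted p = 0.0104). The groups did not overlap for either arm, though the star arm lost its call without PV replicate 1 (adjusted p = 0.0637) and without PV replicate 2 (adjusted p = 0.0932). No other name of the miR-34 list of 6, which includes miR-34b and miR-34c of ciliated cells, was called, and the list median was 0.53. miR-218, a miRNA known from motor neurons, had 6559 and 6444 RPM in PV libraries, against 2286, 2478 and 1518 RPM in Gad2 libraries (log2 change 1.67 ± 0.22, 3.17-fold, adjusted p = 6.01e-06). The PV libraries lay close together and stood above every Gad2 library. Camk2a libraries were near the PV level, at 5576, 6714 and 5721 RPM. SST libraries, at 1054 and 1436 RPM, were below every Gad2 library. The star arms of miR-218 separate the 2 copies. The arm of the Slit2 copy had 4.38 and 5.77 RPM in PV libraries, against 2.04, 2.02 and 1.43 RPM in Gad2 libraries, and the arm of the Slit3 copy 6.24 and 5.59 RPM, against 3.37, 2.02 and 6.73 RPM. The Slit2 arm was called higher (log2 change 1.43, adjusted p = 0.044) and lost its call without any 1 of the 5 libraries (adjusted p = 0.0696 to 0.275) and with a stricter filter (adjusted p = 0.0526). The Slit3 arm overlapped between groups and was not called (log2 change 0.70, adjusted p = 0.318).

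miR-326, miR-325 and miR-301a also rose in PV cells. miR-326, from an intron of Arrb1, had 287 and 249 RPM in PV libraries, against 122, 111 and 32.5 RPM in Gad2 libraries, where replicate 3 was far below the other two. Its log2 change was 1.81 ± 0.41 (adjusted p = 0.00223) and it was called under all 14 alternatives. Without Gad2 replicate 3 the change was smaller, at 1.20 (adjusted p = 0.0059). miR-325 had 355 and 608 RPM in PV libraries, against 115, 157 and 139 RPM in Gad2 libraries (log2 change 1.78 ± 0.35, adjusted p = 0.000502), with a wide gap between the PV libraries. miR-301a, which carries the miR-130 seed, had 525 and 509 RPM in PV libraries, against 146, 189 and 236 RPM in Gad2 libraries (log2 change 1.47 ± 0.23, adjusted p = 6.41e-05). SST libraries, at 766 and 564 RPM, were also above the Gad2 pool for miR-301a.

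The star arms of miR-30a, miR-30d and miR-30e rose while their guides did not pass the test. miR-30e* had 274 and 314 RPM in PV libraries, against 128, 127 and 84.5 RPM in Gad2 libraries (log2 change 1.40 ± 0.27, adjusted p = 0.000537), and its guide miR-30e had 10162 and 11576 RPM, against 10053, 8498 and 10341 RPM (log2 change 0.18, adjusted p = 0.75). miR-30a* had 343 and 373 RPM in PV libraries, against 208, 206 and 101 RPM in Gad2 libraries (log2 change 1.13 ± 0.25, adjusted p = 0.00183), and miR-30a 6299.8 and 7373 RPM, against 8355, 6894 and 8085 RPM. The star arms did not overlap between groups, and both guides did. miR-30d* had 23.8 and 23.2 RPM in PV libraries, against 9.69, 11.1 and 7.30 RPM in Gad2 libraries (log2 change 1.34, adjusted p = 0.00672), a call lost without PV replicate 1 (adjusted p = 0.0637) or PV replicate 2 (adjusted p = 0.0504). The other star arms of the family, miR-30b* (log2 change 0.14, adjusted p = 0.923), miR-30c-1* (-0.03, adjusted p = 0.988) and miR-30c-2* (0.14, adjusted p = 0.825), did not pass. In all, 3 of 11 names of the family were higher and 0 lower, with a median of 0.18, beside 6.70% higher and 14.6% lower over all miRNAs.

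**Figure D2:**
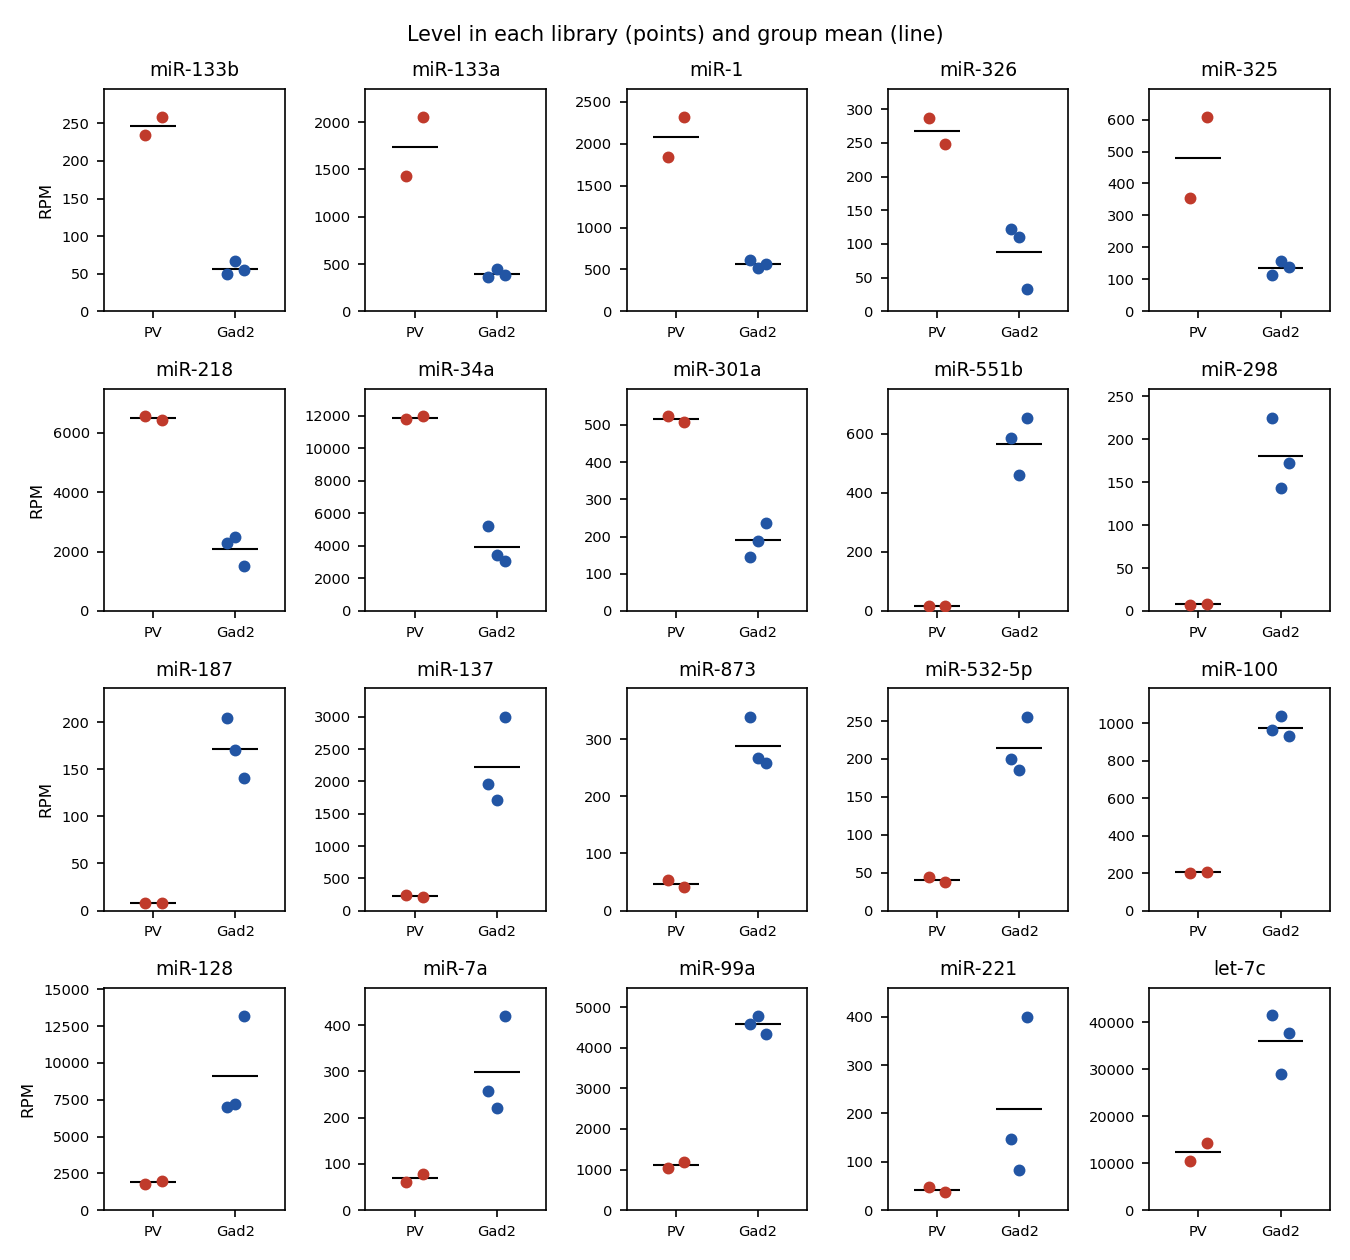
The level in RPM (y axis, from 0) of 20 miRNAs is plotted for each library, PV on the left and Gad2 on the right, with the group mean as a line. The first 8 panels hold miRNAs higher in PV and the other 12 miRNAs lower in PV. In every panel the libraries of the groups are apart, as they are for all 111 miRNAs called.

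The furthest fall among miRNAs of 100 RPM or more was that of miR-551b. It had 15.3 and 15.7 RPM in PV libraries, against 585, 461 and 652 RPM in Gad2 libraries, and the level was close to that of the Gad2 pool in SST libraries (705 and 679 RPM) and in Camk2a libraries (629.5, 587 and 548 RPM). PV cells thus stood apart from the SST and Camk2a classes too, a description with no test of its own. By limma miR-551b fell 35.9-fold in PV cells (log2 change -5.17 ± 0.31, adjusted p = 2.79e-10). Its star arm had 0.186 and 0.175 RPM in PV libraries, below the floor of 3 reads, against 2.18, 3.91 and 4.15 RPM in Gad2 libraries, and was called too (log2 change -3.59, adjusted p = 0.00035).

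miR-187, miR-298 and miR-296-3p fell almost as far. They lie below the average of 100 RPM set for naming and were chosen after their values were seen. miR-187 had 7.73 and 8.22 RPM in PV libraries, against 205, 171 and 140.3 RPM in Gad2 libraries (log2 change -4.40 ± 0.51, adjusted p = 1.36e-06). SST libraries held 551 and 855 RPM and Camk2a libraries 4.17, 5.22 and 5.11 RPM, so the PV level was near that of excitatory neurons and far from that of SST cells. The star arm, miR-187*, had 0.186 and 0.0870 RPM in PV libraries and 12.3, 12.4 and 18.8 RPM in Gad2 libraries (log2 change -5.95 ± 0.67, adjusted p = 1.07e-06). The hairpins of miR-296 and miR-298 lie within chr2:174267047-174267585 on the minus strand, beside the imprinted Gnas locus, and all 3 names from them fell. miR-298 had 6.89 and 8.22 RPM in PV libraries, against 225, 144 and 173 RPM in Gad2 libraries (log2 change -4.54 ± 0.32, adjusted p = 1.22e-09). miR-296-3p had 1.86 and 2.19 RPM in PV libraries, against 47.6, 34.7 and 39.4 RPM (log2 change -4.25, adjusted p = 5.14e-06), and miR-296-5p had 0.279 and 0.612 RPM, against 15.5, 11.3 and 6.44 RPM (log2 change -4.34, adjusted p = 7.21e-06). No library of the groups overlapped for any of the 3, and each was called under all 14 alternatives. SST libraries had 124 and 138 RPM of miR-298 and Camk2a libraries 6.79, 11.6 and 11.2 RPM.

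A run of hairpins on the X chromosome fell together. Mir500, Mir501, Mir362, Mir188 and Mir532 lie within chrX:7237683-7248497 on the minus strand in an intron of Clcn5, a chloride transporter gene. Of 10 names tested, 7 were lower in PV cells and 0 higher, beside 14.6% lower and 6.70% higher over all miRNAs. The median log2 change of the 10 was -1.59. miR-532-5p had 44.6 and 37.2 RPM in PV libraries, against 200.4, 186 and 256 RPM in Gad2 libraries (log2 change -2.38 ± 0.20, adjusted p = 2.15e-08). miR-500 had 127 and 136 RPM in PV libraries, against 406, 391 and 467 RPM in Gad2 libraries (log2 change -1.68 ± 0.17, adjusted p = 2.02e-07). The guides of the other hairpins moved by similar amounts: miR-501-3p by -1.61 (adjusted p = 2.19e-05), miR-362-5p by -1.79 (adjusted p = 2.55e-06) and miR-188-5p by -1.56 (adjusted p = 6.62e-05). miR-501-5p (-1.72) and miR-500* (-1.33) were also called, the call of miR-500* being lost without 4 of the 5 libraries in turn (adjusted p = 0.249 without PV replicate 1, 0.146 without PV replicate 2, 0.082 without Gad2 replicate 1 and 0.167 without Gad2 replicate 3) and with TMM (adjusted p = 0.0685) or RLE scaling (adjusted p = 0.0552). miR-362-3p, miR-188-3p and miR-532-3p, each under 20 RPM in PV and Gad2 libraries, did not pass. Over the whole X chromosome, 13 of 43 names from single loci fell and 2 rose. On autosomes 48 of 412 such names fell and 28 rose. Of the 13 on the X chromosome, 7 were those of the Clcn5 intron. The others included miR-221, miR-222 and both arms of miR-676. These names are thus not independent, and an effect of the chromosome was not tested.

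miR-137 and miR-873 fell in PV cells and were high in SST and Camk2a neurons. miR-137, which restrains synaptic genes and in human lies in a region associated with schizophrenia, had 246 and 212 RPM in PV libraries, against 1958, 1711 and 2993 RPM in Gad2 libraries. By limma it fell 9.44-fold (log2 change -3.24 ± 0.26, adjusted p = 9.05e-09), and its star arm moved by -3.12 (adjusted p = 0.0016). Every Gad2 library was several times above the PV libraries. miR-873 had 53.3 and 40.4 RPM in PV libraries, against 339, 267 and 258 RPM in Gad2 libraries (log2 change -2.62 ± 0.21, adjusted p = 9.05e-09), and its star arm 2.23 and 1.49 RPM, against 27.4, 20.8 and 25.6 RPM. SST libraries held 2991 and 2359.5 RPM of miR-137 and 348 and 306 RPM of miR-873, and Camk2a libraries 4991, 4469 and 5579.5 RPM of miR-137 and 660.1, 755 and 622 RPM of miR-873. miR-31, below the limit of 100 RPM and chosen after its values were seen, had 11.6 and 13.0 RPM in PV libraries and 76.3, 57.6 and 110.1 RPM in Gad2 libraries (log2 change -2.66, adjusted p = 2.07e-07).

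miR-128, the miR-221 and miR-222 pair and star arm miR-132* fell too, and for these, as for miR-137, Gad2 replicate 3 was the highest library. miR-128, whose loss in mouse neurons causes seizures, had 1778 and 1997 RPM in PV libraries, against 7018, 7191 and 13159 RPM in Gad2 libraries (log2 change -2.21 ± 0.22, adjusted p = 1.47e-07). miR-221 had 47.5 and 37.8 RPM in PV libraries, against 147, 83.6 and 399.9 RPM in Gad2 libraries (log2 change -2.00 ± 0.41, adjusted p = 0.000873). miR-222 had 12.2 and 9.01 RPM in PV libraries, against 65.8, 41.7 and 123 RPM in Gad2 libraries (log2 change -2.72 ± 0.33, adjusted p = 2.47e-06). Their star arms were not called, so 2 of 4 names of the miR-221 and miR-222 list fell, beside 14.6% over all miRNAs. SST libraries had 2144 and 2545 RPM of miR-128, 71.2 and 61.0 RPM of miR-221 and 11.7 and 12.6 RPM of miR-222. Like the PV levels, these were below every Gad2 library. For miR-132* SST libraries, at 558 and 612 RPM, were within the Gad2 range. Camk2a libraries had 170460.0, 146682 and 143241 RPM of miR-128, 3065, 2447 and 2199 RPM of miR-221 and 618, 834 and 727 RPM of miR-222, all far above the Gad2 pool. The part that miRNAs of such excitatory cells had in this result was not tested. miR-128, miR-137, miR-221, miR-222 and miR-132* kept their calls without Gad2 replicate 3, as under every other alternative, but the change of miR-221 was then smaller, at -1.39 (adjusted p = 0.00192).

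miR-132 and miR-212, induced by neuronal activity through CREB, share a hairpin pair on chromosome 11. miR-132* had 169 and 183 RPM in PV libraries, against 373, 450.5 and 652 RPM in Gad2 libraries (log2 change -1.44 ± 0.28, adjusted p = 0.000444). miR-212-5p had 37.8 and 41.0 RPM in PV libraries, against 65.1, 76.1 and 119 RPM (log2 change -1.09, adjusted p = 0.0203), a call lost without PV replicate 1 (adjusted p = 0.15), PV replicate 2 (adjusted p = 0.0843) or Gad2 replicate 3 (adjusted p = 0.101). The arms that give the pair its name did not pass: miR-132 had 141 and 156 RPM in PV libraries, against 188, 172 and 256 RPM (log2 change -0.45, adjusted p = 0.208), and miR-212-3p changed by -0.71 (adjusted p = 0.147). Of the activity list of 6 names 2 were lower and 0 higher, with a median of -0.58. Over all miRNAs 14.6% were lower and 6.70% higher. Camk2a libraries had 2108, 2739 and 2022 RPM of miR-132*.

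The miR-7 family, which the circular RNA Cdr1as binds, was lower in PV cells. miR-7a had 60.2 and 78.5 RPM in PV libraries, against 257, 221 and 419 RPM in Gad2 libraries (log2 change -2.06 ± 0.33, adjusted p = 6.41e-05), and miR-7b had 23.1 and 26.3 RPM, against 100.4, 82.7 and 114 RPM (log2 change -1.99 ± 0.35, adjusted p = 0.000166). SST libraries were higher than every Gad2 library, at 1252 and 877 RPM of miR-7a and 478 and 334 RPM of miR-7b. Of 5 names of the family 3 fell and 0 rose, with a median of -1.99, beside 14.6% lower and 6.70% higher over all miRNAs. The third was the star arm miR-7a-2*, with 0.279 and 0.350 RPM in PV libraries, against 1.90, 2.83 and 3.44 RPM in Gad2 libraries, whose call was lost without PV replicate 1 (adjusted p = 0.0716).

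miR-129 has 2 hairpins, and only 1 of their separable arms was called. miR-129-2-3p had 982 and 1191 RPM in PV libraries, against 3088, 3392 and 3972 RPM in Gad2 libraries (log2 change -1.68 ± 0.23, adjusted p = 1.17e-05). miR-129-1-3p, from the other hairpin, had 169.6 and 179 RPM in PV libraries, against 147, 195 and 262 RPM (log2 change -0.17, adjusted p = 0.811), and the shared guide miR-129-5p had 392 and 335 RPM, against 454, 275 and 262 RPM (log2 change 0.18, adjusted p = 0.681). Both of these overlapped between the groups. SST libraries had 1426 and 1206 RPM of miR-129-2-3p, near the PV level and below every Gad2 library.

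The let-7 guides, which build up as cells leave the cell cycle and differentiate, fell in part. All 9 guides with the family seed (let-7a to let-7g, let-7i and miR-98) together took 6.17% and 7.60% of PV reads, against 13.1%, 10.5% and 14.6% of Gad2 reads, a mean of 6.89% ± 1.01 (SD, n = 2) and 12.7% ± 2.1 (SD, n = 3). SST libraries, at 7.61% and 7.11%, were near the PV level. Of the 9 guides, 6 fell and 0 rose in PV cells. let-7c had 10447 and 14323 RPM in PV libraries, against 41488, 29052 and 37721 RPM in Gad2 libraries (log2 change -1.54 ± 0.19, adjusted p = 2.47e-06). let-7b changed by -1.54 (adjusted p = 1.04e-05), let-7e by -1.35 (adjusted p = 4.13e-05) and let-7a by -0.98 (adjusted p = 0.000444), and these 4 kept their calls under every alternative. let-7f (-0.72, adjusted p = 0.00737) lost its call without PV replicate 1 (adjusted p = 0.0739), and let-7i (-0.71, adjusted p = 0.00947) without PV replicate 1 (adjusted p = 0.165) or Gad2 replicate 3 (adjusted p = 0.0574) and with TMM scaling (adjusted p = 0.0519). let-7g had 16873 and 19144 RPM in PV libraries, against 18131, 15890.2 and 22235 RPM in Gad2 libraries, and did not pass (log2 change -0.05, 95% interval -0.44 to 0.34, adjusted p = 0.933). The groups overlapped for let-7g, let-7d and miR-98, and let-7d was called only without PV replicate 2 (log2 change -0.75, adjusted p = 0.0493; -0.48 and 0.107 with it). With star arms the family had 21 names, of which 6 were lower and 2 higher, with a median of -0.16, beside 14.6% lower and 6.70% higher over all miRNAs. The higher ones were let-7i*, at 4.66 and 4.72 RPM in PV libraries and 1.54, 1.35 and 0.430 RPM in Gad2 libraries, and let-7g*, at 1.21 and 1.22 RPM in PV libraries and 0.351, 0.135 and 0.143 RPM in Gad2 libraries. let-7i* rested on 50 and 54 reads in PV libraries and 22, 10 and 3 reads in Gad2 libraries, and let-7g* on 13 and 14 reads in PV libraries and 5, 1 and 1 reads in Gad2 libraries. let-7i* lost its call without either PV library (adjusted p = 0.059 and 0.0541), and let-7g* without either PV library (adjusted p = 0.198 and 0.17) and without Gad2 replicate 2 or 3 (adjusted p = 0.108 and 0.11), with a stricter filter (adjusted p = 0.0574) and with DESeq2 (adjusted p = 0.103).

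miR-99a and miR-100, which repress the growth kinase mTOR and stand beside let-7 hairpins, fell by similar amounts. miR-99a had 1037 and 1174 RPM in PV libraries, against 4593, 4787 and 4336 RPM in Gad2 libraries (log2 change -2.05 ± 0.18, 4.14-fold, adjusted p = 2.8e-08). miR-100 had 203 and 205 RPM in PV libraries, against 963, 1037 and 930.0 RPM in Gad2 libraries (log2 change -2.26 ± 0.14, 4.79-fold, adjusted p = 2.87e-10). Replicates lay close together on both sides and the gap was wide. miR-99a at chr16:77598940-77598961 shares an intron of Mir99ahg with a copy of let-7c. miR-99b, near let-7e on chromosome 17, had 523 and 467 RPM in PV libraries, against 449, 625 and 419 RPM, and did not pass (log2 change 0.01, adjusted p = 0.996). miR-125b-5p had 7129.8 and 7317 RPM in PV libraries, against 11643, 14230.3 and 6855 RPM, the lowest being Gad2 replicate 3 (log2 change -0.53, adjusted p = 0.208, and -0.83 with adjusted p = 0.032 without that library). miR-125b-1-3p fell (log2 change -0.95, adjusted p = 0.0231), a call lost without PV replicate 1 (adjusted p = 0.234), PV replicate 2 (adjusted p = 0.0551) or Gad2 replicate 2 (adjusted p = 0.0785) and with RLE scaling (adjusted p = 0.0539). Of 11 names in the miR-99/100 and miR-125 list 3 fell and 0 rose, with a median of -0.53. Over all miRNAs 14.6% fell and 6.70% rose.

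The most abundant miRNAs of PV cells were mostly not called. miR-124, the main miRNA of neurons, had 362742 and 321616 RPM in PV libraries, against 266972, 284250.0 and 244214 RPM in Gad2 libraries. PV libraries were higher without overlap, but the change did not pass the test (log2 change 0.37 ± 0.18, 95% interval 0.00 to 0.73, adjusted p = 0.151). miR-29b, a brake on apoptosis genes in mature neurons, had 161740.0 and 160105 RPM in PV libraries, against 114953, 122730.0 and 107189 RPM in Gad2 libraries (log2 change 0.49 ± 0.18, adjusted p = 0.0635). It was called when only the 5 libraries were fitted (adjusted p = 0.0273) and by DESeq2 (adjusted p = 0.0325). miR-9 (log2 change -0.03, 95% interval -0.35 to 0.30) and miR-29a (0.01, 95% interval -0.34 to 0.36) were near 0, and the sign of both turned under some alternatives. miR-22 (-0.25, adjusted p = 0.402), miR-29c (0.25, adjusted p = 0.396), miR-376a (-0.52, adjusted p = 0.0869, but 0.0315 in the 5 libraries alone) and miR-181a (-0.39, adjusted p = 0.213) did not pass either. miR-26a was the 1 member of the 10 most abundant that fell, with 14416 and 18448 RPM in PV libraries, against 30563, 26482 and 24909 RPM in Gad2 libraries (log2 change -0.74 ± 0.22, adjusted p = 0.0174). Its call was lost without PV replicate 1 (adjusted p = 0.24) or Gad2 replicate 1 (adjusted p = 0.0674) and with TMM (adjusted p = 0.0628) or RLE scaling (adjusted p = 0.0543). miR-9*, the other arm of miR-9, had 13542 and 12833 RPM in PV libraries, against 18048, 20691 and 22848 RPM in Gad2 libraries, and fell (log2 change -0.63 ± 0.14, adjusted p = 0.00223).

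The imprinted clusters held few calls, in both directions. The miR-379 to miR-410 hairpins of the maternally expressed Dlk1-Dio3 region on chromosome 12 gave 66 names, of which 8 fell and 2 rose, with a median of -0.07. Over all miRNAs 14.6% fell and 6.70% rose, so the cluster's counts do not stand above the background. miR-369-3p had 7325 and 6704 RPM in PV libraries, against 14991, 13382 and 16221 RPM in Gad2 libraries (log2 change -1.08 ± 0.23, adjusted p = 0.00106). miR-376b (-1.21, adjusted p = 0.00101) and miR-381 (-1.06, adjusted p = 8.09e-05) fell as well, while miR-380-3p had 403 and 352 RPM in PV libraries, against 196, 156 and 202 RPM in Gad2 libraries, and rose (1.04, adjusted p = 0.00268, but 0.0548 without PV replicate 1). The other that rose, miR-300*, had 581 and 696 RPM in PV libraries, against 389, 294 and 418 RPM (log2 change 0.81, adjusted p = 0.0228), and lost its call without PV replicate 1 (adjusted p = 0.0606), PV replicate 2 (adjusted p = 0.201) or Gad2 replicate 2 (adjusted p = 0.0973). Names from 1 cluster of hairpins thus differed in direction. The Meg3 and anti-Rtl1 hairpins upstream gave 25 names with 1 higher and 1 lower and a median of 0.08. The higher one, miR-433*, had 277 and 381 RPM in PV libraries, against 137, 156 and 197 RPM (log2 change 1.00, adjusted p = 0.00748, but 0.148 without PV replicate 2), while its guide miR-433 had 5015 and 5664 RPM in PV libraries, against 6048, 4196 and 4742 RPM (log2 change 0.11). The lower one was miR-540-5p (log2 change -1.23, adjusted p = 0.00924), a call lost without PV replicate 2 (adjusted p = 0.103). The Sfmbt2 intron cluster, a large imprinted family of near-identical hairpins, gave 41 names with 1 higher and 0 lower and a median of 0.47, and several of its names hold identical values. The 1 was miR-669o-5p, at 3.26 and 2.88 RPM in PV libraries and 0.983, 0.944 and 0.716 RPM in Gad2 libraries, and it lost its call without either PV library or Gad2 replicate 2 or 3 (adjusted p = 0.0533 to 0.193).

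**Figure D3:**
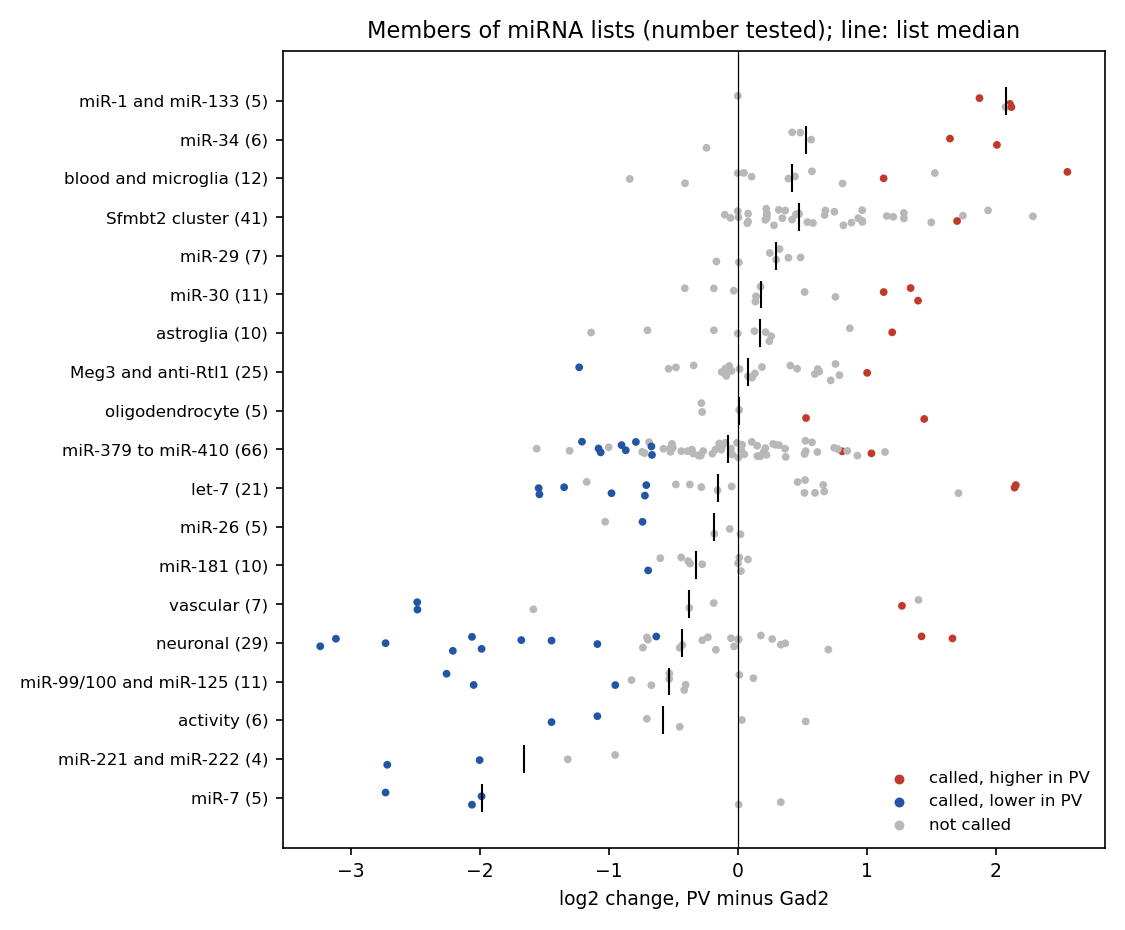
Each point is 1 miRNA of a list, placed by its log2 change, PV minus Gad2 (x axis); rows are 19 of the 25 lists with the number of names tested, and the black line is the list median. The miR-1 and miR-133 row has a median of 2.08, the miR-7 row one of -1.99 and the miR-221 and miR-222 row one of -1.66. The other medians run from -0.58 (activity) to 0.53 (miR-34).

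Markers of other cell types were measured beside these results. The astroglia list took 0.539% and 0.499% of PV reads, against 0.370% to 0.422% of Gad2 reads, and the oligodendrocyte list 0.111% and 0.0907%, against 0.0681% to 0.0734%. The blood and microglia list took 0.0273% and 0.0256% of PV reads, against 0.00885% to 0.0193% of Gad2 reads. These 3 lists were higher in both PV libraries than in any Gad2 library. Most of each gap came from 1 name, miR-21, miR-338-3p and miR-486 in turn, so the sums do not speak for whole lists. Among single miRNAs, 52.1% of those tested did not overlap between the groups. The vascular list (0.0303% and 0.0339%, against 0.0334% to 0.0411%) and the choroid and ependyma list (0.0118% and 0.0137%, against 0.00990% to 0.0123%) overlapped between the groups. The part of these cell types in the differences between PV cells and the Gad2 pool was not tested.

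Single markers moved both ways, and each list is short, so that 1 or 2 calls are to be read beside the 6.70% higher and 14.6% lower over all miRNAs. In the astroglia list 1 of 10 names rose and 0 fell, with a median of 0.17. It was miR-21, which is common in glia and tumours, with 2132 and 1713 RPM in PV libraries, against 653, 1018 and 869 RPM in Gad2 libraries (log2 change 1.20 ± 0.28, adjusted p = 0.00259, but 0.0588 without PV replicate 1). SST libraries, at 2107 and 1319 RPM of miR-21, were also above every Gad2 library. Camk2a libraries, at 860, 664 and 994 RPM, were within the Gad2 range. In the oligodendrocyte list 2 of 5 rose and 0 fell, with a median of 0.01. miR-338-3p had 1066 and 855 RPM in PV libraries, against 688, 677 and 621 RPM (log2 change 0.53, adjusted p = 0.0481), and lost its call without any 1 of the 5 libraries (adjusted p = 0.0538 to 0.406), with TMM scaling (adjusted p = 0.0538), in the 5 libraries alone (adjusted p = 0.0562) and with edgeR (adjusted p = 0.0618). miR-219-5p had 10.2 and 9.79 RPM in PV libraries, against 3.58, 4.58 and 2.86 RPM (log2 change 1.45, adjusted p = 0.00748), and lost it without PV replicate 1 (adjusted p = 0.0704) or PV replicate 2 (adjusted p = 0.0513). In the blood and microglia list 2 of 12 rose and 0 fell, with a median of 0.42. miR-486, an erythroid miRNA from an intron of Ank1 that shares its reads with miR-3107, had 224 and 217 RPM in PV libraries, against 116, 153 and 57.3 RPM (log2 change 1.13 ± 0.28, adjusted p = 0.00453). miR-150, known from lymphocytes, had 11.6 and 9.27 RPM in PV libraries, against 1.90, 3.37 and 0.716 RPM (log2 change 2.56, adjusted p = 0.00023). miR-451, the defining erythroid miRNA, had 19.8 and 14.7 RPM in PV libraries and 8.07, 12.3 and 15.0 RPM in Gad2 libraries, which overlapped, and did not pass (log2 change 0.58, adjusted p = 0.244). The leukocyte miR-142-3p was near the floor, at 0.466 and 0.874 RPM in PV libraries and 0.421, 1.35 and 0 RPM in Gad2 libraries.

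In the vascular list 1 of 7 rose and 2 fell, with a median of -0.38. miR-143, of smooth muscle, had 87.2 and 102 RPM in PV libraries, against 42.2, 42.8 and 32.6 RPM in Gad2 libraries (log2 change 1.27, adjusted p = 2.18e-05). miR-199a-3p, of mesenchymal cells, had 3.91 and 4.11 RPM in PV libraries, against 18.1, 27.4 and 24.3 RPM (log2 change -2.49, adjusted p = 1.17e-05), and the near-identical miR-199b moved with it. The endothelial miR-126-3p had 162 and 190.2 RPM in PV libraries, against 215, 249.9 and 221 RPM, and did not pass (log2 change -0.38, adjusted p = 0.129). In the choroid and ependyma list 2 of 6 fell and 0 rose, with a median of 0.09. Both came from the hairpin in an intron of Trpm3, whose guide miR-204 had 8.10 and 6.99 RPM in PV libraries, against 16.4, 25.4 and 18.2 RPM in Gad2 libraries (log2 change -1.37, adjusted p = 0.00312) and whose star arm miR-204* had 0.279 and 0.262 RPM, 3 reads in each PV library, against 2.53, 2.29 and 4.01 RPM (log2 change -3.00, adjusted p = 6.1e-05).

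The neuronal list of 29 names had 2 higher and 10 lower in PV cells, with a median of -0.43, beside 6.70% higher and 14.6% lower over all miRNAs. Those that rose were miR-218 and its Slit2 star arm, and those that fell were the arms of miR-128, miR-129, miR-132, miR-137, miR-212, miR-7 and miR-9 described above. The miR-181 list had 1 of 10 lower, with a median of -0.32. It was miR-181b, with 3734 and 4384 RPM in PV libraries, against 6764, 6347 and 6551 RPM in Gad2 libraries (log2 change -0.70 ± 0.15, adjusted p = 0.00193, but 0.0598 without PV replicate 1). The miR-26 list had 1 of 5 lower (median -0.18) and the miR-17-92 clusters 2 of 16 lower (median -0.07), near the 14.6% over all miRNAs. The calls in the miR-17-92 clusters were miR-17* (log2 change -2.07, adjusted p = 8.89e-05) and miR-19b (-1.28, adjusted p = 0.0464), the call of miR-19b being lost without either PV library or Gad2 replicate 2 or 3 (adjusted p = 0.0623 to 0.239). No name was called in the miR-29 list (7 names, median 0.30), the miR-15/16 list (13 names, median -0.01), the miR-23/24/27 clusters (11 names, median 0.13), the list of miR-28, miR-151 and miR-708 (6 names, median 0.07) or the miR-183 cluster (1 name). The 25 lists overlap, and 60 of their members in all were called, beside 111 of 522 miRNAs (21.3%) over all tested. The share of list members that the 60 make up is not given, so they are not read as an excess.

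The arms of a hairpin did not always move together. Of 140 hairpins with enough reads on both arms, the ratio of the minor to the major arm changed in 13 (9.29%), with a relatively higher minor arm in PV cells for 11 (7.86%) and a lower one for 2 (1.43%). The clearest was miR-99a: the star arm made up 5.92% and 6.18% of the hairpin's reads in PV libraries, against 1.83%, 2.27% and 1.98% in Gad2 libraries (log2 ratio change 1.64 ± 0.25, adjusted p = 0.000928 by limma). Its guide fell while miR-99a* had 65.3 and 77.4 RPM in PV libraries and 85.6, 111 and 87.6 RPM in Gad2 libraries and did not pass (log2 change -0.40, adjusted p = 0.278). For miR-30d the minor share was 0.574% and 0.493% in PV libraries, against 0.151%, 0.207% and 0.124% in Gad2 libraries (log2 ratio change 1.76 ± 0.34, adjusted p = 0.00627). For miR-100 it was 2.64% and 2.05%, against 0.587%, 0.838% and 1.01% (log2 ratio change 1.58 ± 0.43, adjusted p = 0.0337). The other hairpins with a relatively higher minor arm were let-7d, let-7e, let-7i, miR-300, miR-30a, miR-374, miR-532 and miR-98. Those with a lower one were miR-204 and miR-345. The read filter was a mean, so an arm could pass with few reads in either group. miR-204* had 3 and 3 reads in PV libraries, against 36, 17 and 28 in Gad2 libraries. miR-345-3p had 6 and 7, against 64, 35 and 20. On the higher side let-7i* had 50 and 54 reads in PV libraries, against 22, 10 and 3 in Gad2 libraries. miR-98* had 43 and 29, against 7, 4 and 18. Without PV replicate 1 or PV replicate 2 miR-99a alone was called, and 7 hairpins were called without Gad2 replicate 3. Of 41 hairpins whose major arm was called, the minor arm moved the same way in 13, the opposite way in 1 (let-7i) and was not called in 27.

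**Figure D4:**
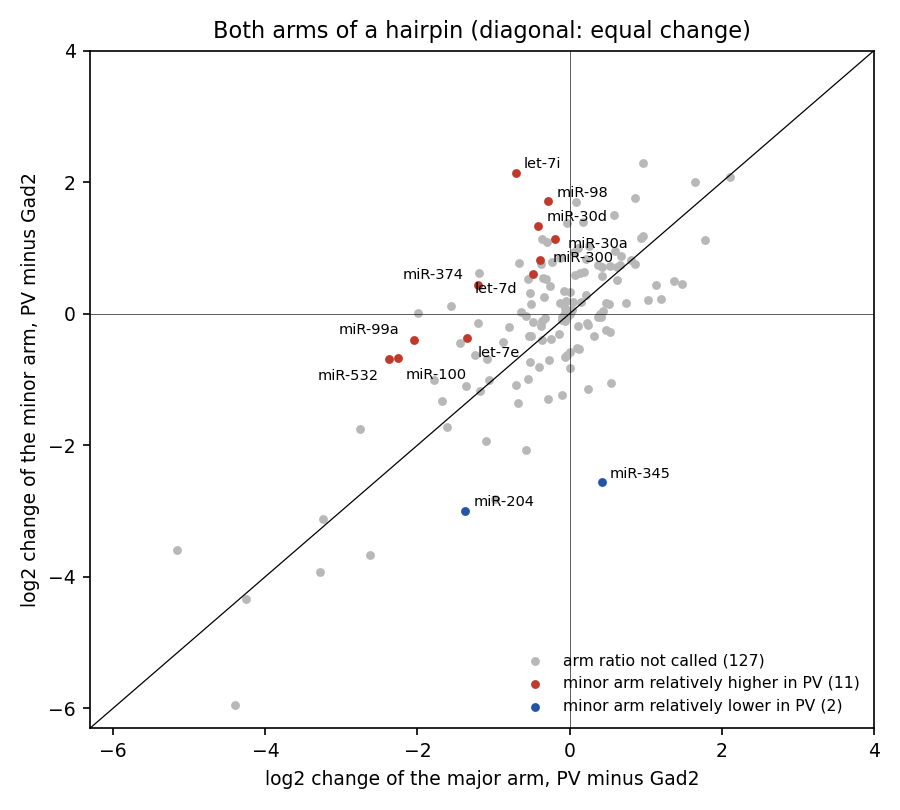
Each point is 1 of 140 hairpins, with the log2 change of its major arm on the x axis and that of its minor arm on the y axis, both PV minus Gad2; points on the diagonal changed equally on both arms. The 11 hairpins in red, miR-99a and let-7i among them, lie above the diagonal and the 2 in blue, miR-204 and miR-345, below it. For let-7i, miR-204 and miR-345 the minor arm held few reads in the group where it was lower.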

How the data were processed

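The authors sequenced small RNAs bound to immunoprecipitated Ago2 and deposited 1 table of normalized read numbers per miRNA and library, here called signal values. Reads were mapped with Bowtie to mm9, per the submitters' processing notes; the Bowtie version and the handling of reads that match several miRNAs are not given in the sources used here. Per the file headers the deposited signal is scaled to 1000000 reads, but each column sums to 10000000, and division by 10 turned them into RPM. In all 19 libraries the values came out as whole multiples of 1 read (100% within a tolerance of 0.006 deposited units), which gave the read counts. The 120 blank rows were left out.

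Log2(deposited value + 1), that is, a pseudocount of 0.1 RPM, was fitted with limma 3.58.1 (R 4.3.3, with a mean-variance trend) over 7 group means and 19 libraries, for the 522 miRNAs that reached a value of 1 in 2 or more libraries. PV minus Gad2 was tested two-sided with Benjamini-Hochberg adjustment over all 522. Fold changes are on this log2(value + pseudocount) scale, which understates those of low miRNAs. Arm ratios were tested with limma on log2((minor + 0.5)/(major + 0.5)) of the reads, over 140 hairpins with a mean of 10 reads on each arm. Alternatives used another pseudocount or filter, TMM or RLE scaling, the 5 libraries alone, a replicate block, edgeR 4.0.16 and DESeq2 1.42.0 on recovered reads, and each library left out.

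The labels do not say that libraries of a group came from separate animals beyond the 4 pooled tissues each, so the spread between replicates may be technical. The spread behind the p-values, standard errors and intervals was pooled over all groups of the series, and not taken from the PV and Gad2 libraries alone. With only those libraries fitted, 163 of 496 miRNAs were called, beside 111 of 522 in the main fit. Intervals cover the pooled spread and not the handling of multi-mapping reads.

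Named were called miRNAs averaging at least 100 RPM over PV and Gad2 without overlap (the 12 highest and 12 lowest changes), up to 4 called members of at least 10 RPM per list, the 10 most abundant of PV cells, and other arms of named hairpins; any others were chosen after their values were seen. The comparison and the 25 lists were chosen with earlier results of these data known. Near-identical miRNAs (let-7 members, miR-99a and miR-100, miR-7a and miR-7b, miR-133a and miR-133b) may share reads. Positions and hosts come from the GRCm38 annotation (GENCODE M21) by miRNA name, not from mm9 coordinates. The 31 of 32 mature sequences looked up that matched came from RefSeq. The fitting code was tested on simulated data. Of 100 changed miRNAs it recovered 20% at a 2-fold change and 68% at a 4-fold change, with 0% of its calls false. A miRNA that did not pass may thus still differ. Of 40 changed arm ratios it recovered 100%, with 2.44% of its calls false, at a spread that was set and not taken from the data.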

Additional observations from a re-analysis of the deposited data

How the results depend on the processing

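The number of miRNAs called was 111 (35 higher in PV cells, 31.5% of the calls) and ran from 73 to 105 when 1 library was left out, the lowest without PV replicate 1. Those called higher numbered 18 to 32 when 1 library was left out, 62 with the PV and Gad2 libraries alone, 55 with edgeR and 69 with DESeq2, which put 46% of its calls on the higher side. TMM scaling gave 43 higher and 68 lower, and RLE scaling, added after seeing the data, 47 and 69. List members called numbered 60, and 38 to 57 when 1 library was left out. Arm ratios called were 13, against 30 with an offset of 5 (24 higher), 26 with the 5 libraries alone (18 higher) and 1 to 11 with 1 library left out (1 to 10 higher). The replicate block gave 107 calls (34 higher, 73 lower), of which 104 were among the 111, and 10 arm ratios; same-numbered libraries did not deviate together (r = -0.17 and 0.00149), so the numbers were not read as pairs.

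Of the log2 changes of named miRNAs, 3 turned in sign, none of them called. let-7g (-0.047) became 0.031 with TMM, 0.013 with the replicate block, 0.045 with DESeq2 and 0.050 with RLE, and ran from -0.16 to 0.083 with 1 library left out. miR-9 (-0.029) became 0.050 with TMM, 0.055 with DESeq2 and 0.069 with RLE, and ran from -0.11 to 0.069. miR-29a (0.0086) became -0.041 with the replicate block and ran from -0.069 to 0.086. The cause was not tested. A pseudocount of 10 brought the changes of low names nearer to 0 by over 1.5-fold: let-7g* 0.88, let-7i* 1.48, miR-137* -1.96, miR-187* -3.74, miR-296-5p -3.00, miR-551b* -1.87, miR-669o-5p 1.12, miR-676* -2.61 and miR-7a-2* -1.48. DESeq2 gave -6.63 for miR-187*. Another 27 named miRNAs lost their call under at least 1 alternative and 5 gained one.

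With 2 PV libraries a left-out fit rests on 1. Depth limits miRNAs below about 1 RPM, where values rest on a few reads.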

Other observations

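Several lower miRNAs outside the lists also separated PV cells from the Gad2 pool; they were chosen after their values were seen. miR-676, from an intron of the X-linked gene Eda, had 3.91 and 3.67 RPM in PV libraries, against 51.0, 45.5 and 23.2 RPM in Gad2 libraries (log2 change -3.28, limma adjusted p = 4.32e-08), and its star arm changed by -3.93 (adjusted p = 3.06e-06). miR-33, from an intron of Srebf2 and a regulator of cholesterol export, had 5.59 and 6.29 RPM in PV libraries, against 32.1, 38.8 and 54.3 RPM in Gad2 libraries (log2 change -2.76, adjusted p = 0.000114). The groups did not overlap for either. miR-135a had 7.26 and 6.73 RPM in PV libraries, against 26.0, 38.3 and 67.3 RPM in Gad2 libraries (log2 change -2.52, adjusted p = 0.00021), and miR-135b changed by -2.37 (adjusted p = 0.000257). The star arm miR-135a-1* had 0 reads in both PV libraries, against 4.28, 2.56 and 2.29 RPM in Gad2 libraries, at least 10.9-fold lower with a floor of 3 reads per library.

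Among abundant miRNAs, miR-139-5p, from an intron of Pde2a, had 2286 and 2878 RPM in PV libraries, against 5588, 5449 and 7347 RPM in Gad2 libraries (log2 change -1.24, adjusted p = 0.00268, but 0.0598 without PV replicate 1). SST libraries stood above both, at 16853 and 14516 RPM. miR-335-5p, from the imprinted gene Mest, had 729.9 and 777 RPM in PV libraries, against 1337, 1621 and 2379 RPM in Gad2 libraries (log2 change -1.20, adjusted p = 0.000401). On the higher side, miR-664 had 94.1 and 83.4 RPM in PV libraries, against 26.2, 38.3 and 31.4 RPM in Gad2 libraries (log2 change 1.49, limma adjusted p = 0.00384). Its call was lost without PV replicate 1 (log2 change 1.40). miR-185 had 1719 and 1915 RPM in PV libraries, against 1125, 971 and 913 RPM in Gad2 libraries (log2 change 0.86, limma adjusted p = 0.0151). Its call was lost without PV replicate 1 (log2 change 0.94) or PV replicate 2 (0.78). SST libraries had 1721 and 1789 RPM of miR-185, near the PV level.

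miR-182, known from sensory cells such as photoreceptors and hair cells, was high in 1 PV library alone. It had 90.2 and 2.71 RPM in PV libraries, against 1.12, 2.70 and 5.01 RPM in Gad2 libraries, and was not called by limma (log2 change 2.62, adjusted p = 0.0886). The change was 0.11 without PV replicate 1 and 5.12 without PV replicate 2 (adjusted p = 0.00113), and edgeR (adjusted p = 7.49e-05) and DESeq2 (adjusted p = 0.000999) called it although only PV replicate 1 stood above the Gad2 libraries.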
